A study of Mus musculus with 6 samples.

Results

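Condensin and cohesin are ring-shaped protein complexes that organise chromosomes, and 10 genes encoding their subunits were examined here in the mouse pre-osteoblast line MC3T3-E1 before and after osteoblast induction. The members were 6 condensin genes (Smc2, Smc4, Ncapd2, Ncapg, Ncaph and Ncapg2) and 4 cohesin genes (Smc1a, Smc3, Rad21 and Stag1), taken by name from the array probe sets whose annotation gives a single gene. All 10 were measured, each by 1 probe set, among 19938 genes tested in all. RNA came from 6 samples of this calvarial line (C57BL/6, newborn), with 1 Affymetrix array each. The undifferentiated group (3 arrays) grew in ascorbate-free α-MEM plus 10% serum and had no treatment. The differentiated group (3 arrays) was switched at confluence to DMEM containing 10% serum, dexamethasone (0.1 µM), ascorbic acid-2-phosphate (0.2 mM), β-glycerophosphate (10 mM) and pyruvate (1 mM), and was harvested after 14 days. Medium, confluence, time and inducers therefore changed together and cannot be told apart. All samples derive from a single line, and the replicates are called independent without a statement of what separated them, so p-values measure the spread between these arrays.

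Each complex is built on a pair of long SMC proteins, ATPases that join at a hinge, closed by a kleisin subunit and decorated with HEAT-repeat subunits. Condensin loops and compacts chromosome arms for mitosis. It exists as condensin I and condensin II, which share SMC2 and SMC4 and differ in the other subunits. Cohesin holds sister chromatids together from S phase to anaphase, and it also extrudes chromatin loops in interphase, where it acts together with CTCF on gene regulation in dividing and non-dividing cells alike.

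The deposited values are log2 expression with each probe set centred to a median of 0 over the 6 arrays. Differences between arrays can be read, but a gene's own level cannot. Where all differentiated arrays are lower, this centring also places the lowest undifferentiated and the highest differentiated value of a probe set at equal distances from 0. Where they are all higher, it does so for the highest undifferentiated and the lowest differentiated value. For that reason only the gaps between values carry information. Array medians over all probe sets lay between -0.00499 and 0.00838, and undifferentiated replicate 3 had the largest residual spread (SD 0.0947, against 0.0745 to 0.0867 in the others).

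All 10 members were lower in differentiated cells, and condensin fell further than cohesin. Every condensin member fell at least 2-fold, from 6.14-fold in Ncapg to 2.21-fold in Smc4, whereas of the cohesin members only Rad21 fell that far (2.29-fold) and Stag1 was 1.16-fold lower. By limma, 6 of 6 condensin and 4 of 4 cohesin members passed an adjusted p of 0.05 as lower. Among all genes tested, 19.1% were called lower and 2.28% were called lower with a change of at least 2-fold. The members and gene lists were chosen with earlier results of these data known. Their counts beside such shares, here and below, may partly reflect that choice. In bulk RNA of this kind, fewer cells expressing a gene and less RNA per cell cannot be told apart. The median log2 fold change was -2.25 over the condensin members and -0.65 over the cohesin members, beside 0.02 over all genes. Unknown background in each probe set shrinks its fold change, so sizes of falls need not compare in RNA between genes or complexes.

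**Figure D1:**
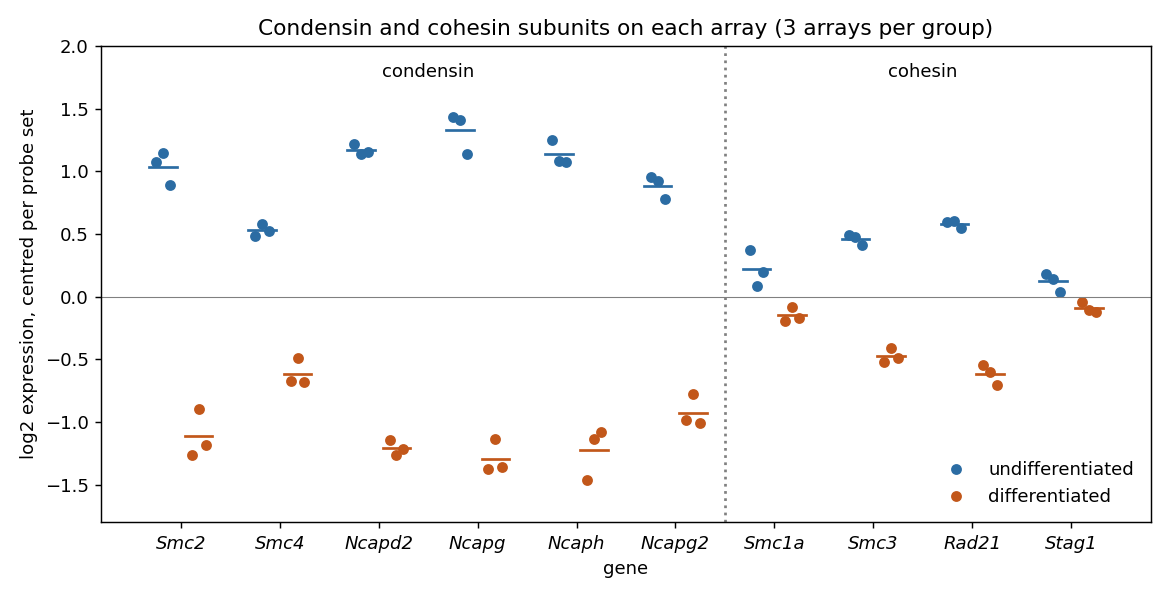
Centred log2 expression (y axis) of each member (x axis) on every array, with 3 points and a horizontal line at the mean for each group. In all 10 genes the differentiated arrays (orange) lie below the undifferentiated arrays (blue), with wide gaps for condensin and a narrow one for Stag1.

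Ncapg encodes the HEAT-repeat subunit CAP-G of condensin I, and it fell the most. Its centred log2 values (probe set 10521731) ran 1.43, 1.41 and 1.14 over the undifferentiated arrays and -1.38, -1.14 and -1.36 over the differentiated arrays, given here and hereafter in the order of replicates 1 to 3. The groups stood far apart, with undifferentiated replicate 3 the lowest of its group and differentiated replicate 2 the highest of its own. The log2 fold change was -2.62 ± 0.10 (limma's moderated SE, 3 arrays per group, adjusted p = 1.24e-07), which ranked 30 from the bottom among all genes.

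Ncapd2 encodes CAP-D2, the other HEAT-repeat subunit of condensin I. Its values (probe set 10547943) were 1.21, 1.14 and 1.15 in undifferentiated and -1.14, -1.27 and -1.22 in differentiated replicates. Replicates lay close together here, with an SD of 0.0392 and 0.0628, and the fall of 5.20-fold (-2.38 ± 0.06, adjusted p = 1.84e-08) had the smallest adjusted p of the 10 members. Ncaph encodes the kleisin CAP-H, which closes the condensin I ring. Its values (probe set 10487340) were 1.25, 1.08 and 1.08 in undifferentiated and -1.46, -1.14 and -1.08 in differentiated replicates, a 5.13-fold fall (-2.36 ± 0.10, adjusted p = 3.22e-07). Differentiated replicate 1 was the lowest, and the groups did not overlap. The falls of the 3 subunits that belong to condensin I alone were not told apart at this precision, since their 95% intervals (-2.84 to -2.40 for Ncapg, -2.51 to -2.25 for Ncapd2 and -2.59 to -2.13 for Ncaph) overlapped one another.

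Ncapg2 encodes CAP-G2, a HEAT-repeat subunit found only in condensin II, the form that stays in the nucleus during interphase. Its values (probe set 10399087) were 0.95, 0.92 and 0.78 in undifferentiated and -0.99, -0.78 and -1.01 in differentiated replicates. The groups were apart, and the fall was 3.51-fold (-1.81 ± 0.08, adjusted p = 3.26e-07). Its 95% interval of -1.99 to -1.63 lay above those of the 3 condensin I subunits, so its fall was smaller than theirs by that measure.

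Smc2 and Smc4 encode the ATPase pair that both condensins share, and they fell by different amounts. Smc2 (probe set 10504957) had values of 1.08, 1.14 and 0.89 in undifferentiated and -1.26, -0.89 and -1.18 in differentiated replicates, a 4.43-fold fall (-2.15 ± 0.10, adjusted p = 5.54e-07). Smc4 (probe set 10492558) had values of 0.49, 0.58 and 0.52 in undifferentiated and -0.67, -0.49 and -0.68 in differentiated replicates, a 2.21-fold fall (-1.14 ± 0.07, adjusted p = 1.85e-06). In both genes the groups did not overlap and differentiated replicate 2 was the highest of its group. Taken within each array, Smc2 minus Smc4 was 0.59, 0.56 and 0.37 in undifferentiated and -0.59, -0.41 and -0.50 in differentiated cells, again with no overlap. Their 95% intervals, -2.38 to -1.91 for Smc2 and -1.30 to -0.99 for Smc4, were also apart. Each gene was read by its own probe set with an unknown background, and a background signal shrinks a fold change, so the sizes of 2 genes' falls need not compare in RNA.

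The remaining condensin II subunits, which were on the list of related genes rather than among the members, were also lower. Ncapd3, which encodes the HEAT-repeat subunit CAP-D3, had a log2 fold change of -1.29 ± 0.08 (adjusted p = 2.59e-06), and Ncaph2, the kleisin CAP-H2, of -1.05 ± 0.10 (adjusted p = 3.53e-05). All 8 condensin genes measured were thus called lower, where 19.1% of all genes were. In array values the 3 genes specific to condensin I fell further than the 3 specific to condensin II, with no overlap of 95% intervals between the sets. The limit of unknown probe set background holds for this comparison too, because the intervals measure only the spread between arrays.

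Promoter sequences are shown because the condensin members fell together, and the cell cycle gene homology region (CHR, TTTGAA) is a textbook element of promoters that are active in G2 and mitosis and silenced by the DREAM complex in resting cells. RefSeq promoter sequences (GRCm38.p6, 250 bases before 1 listed transcript start) were matched for 8 of the 10 members. Smc4, the condensin member that fell the least, and Rad21, the cohesin member that fell the most, were without one. The counts below leave out both, so whether the letters follow the complexes cannot be read for them. TTTGAA, read on both strands, stood in 4 of 5 condensin and 0 of 3 cohesin promoters, and in 16.0% of 32851 promoters of the same length. The matches are printed as windows of 30 bases in the direction of transcription, with the match in capitals.
Smc2, chr4:52439064-52439093, plus strand: tcgctttccatgTTCAAAacggtatagtct
Ncapd2, chr6:125191692-125191721, minus strand: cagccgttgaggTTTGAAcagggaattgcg
Ncapg, chr5:45669883-45669912, plus strand: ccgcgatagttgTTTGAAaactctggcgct
Ncapg2, chr12:116405406-116405435, plus strand: tacgcgggtgtgTTTGAAtctggtccgagc
The first base of the match lay 145 bases before the start in Smc2, where the letters stand on the opposite strand and read TTCAAA, 123 in Ncapd2, 30 in Ncapg and 18 in Ncapg2. These are matches of letters, not measured binding sites, and their part in the falls was not tested.

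CCAAT, the NF-Y element that often accompanies a CHR, was found on either strand in Smc2, Ncapd2 and Ncapg among condensin and in Smc1a and Stag1 among cohesin promoters, and in 33.8% of all promoters. The E2F letters TTTCCCGC, TTTGGCGC, TTTCGCGC and TTTGCCGC, searched together on both strands, were present in Ncapd2, Ncapg2 and Stag1 and in 1.86% of all promoters. The E2F-like GGCGGGAA, which overlaps the reverse of TTTCCCGC by 7 letters, was in Ncapg2 and in 1.86% of promoters. TTTAAA and the E-box CACGTG were in none of the 8 promoters and in 12.1% and 6.02% of all. Ncaph, which fell as far as Ncapd2, held none of these letters in its window, and neither did Smc3. The 250 bases are printed below for Smc2, Ncaph and Smc3, with TTTGAA and CCAAT on either strand in capitals, to set a condensin promoter with a match beside a condensin and a cohesin promoter without one.
Smc2, chr4:52438971-52439220, plus strand: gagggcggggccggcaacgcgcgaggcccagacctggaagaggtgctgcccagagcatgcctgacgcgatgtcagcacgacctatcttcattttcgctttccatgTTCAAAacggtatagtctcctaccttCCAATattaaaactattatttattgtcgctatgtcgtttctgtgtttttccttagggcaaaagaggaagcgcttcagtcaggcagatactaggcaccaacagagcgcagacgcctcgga
Ncaph, chr2:127133955-127134204, minus strand: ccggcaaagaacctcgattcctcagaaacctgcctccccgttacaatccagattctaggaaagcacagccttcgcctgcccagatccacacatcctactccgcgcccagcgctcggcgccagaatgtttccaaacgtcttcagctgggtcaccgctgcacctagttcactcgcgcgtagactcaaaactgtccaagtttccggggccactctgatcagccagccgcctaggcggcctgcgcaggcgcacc
Smc3, chr19:53600146-53600395, plus strand: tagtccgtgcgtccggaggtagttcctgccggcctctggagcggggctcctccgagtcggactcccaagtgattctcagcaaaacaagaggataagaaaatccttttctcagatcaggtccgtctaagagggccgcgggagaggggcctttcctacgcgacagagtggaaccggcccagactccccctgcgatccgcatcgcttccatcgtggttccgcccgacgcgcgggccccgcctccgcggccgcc

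Among the cohesin members, Rad21 fell the most. It encodes the kleisin that closes the cohesin ring and is cut by separase at anaphase. Its centred log2 values (probe set 10428561) were 0.59, 0.60 and 0.55 in undifferentiated and -0.55, -0.60 and -0.70 in differentiated replicates. The groups were clearly apart, and the fall was 2.29-fold (-1.20 ± 0.06, adjusted p = 5.92e-07).

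Smc3 and Smc1a encode the ATPase pair of cohesin, and they too fell by different amounts. Smc3 (probe set 10463951) had values of 0.49, 0.47 and 0.41 in undifferentiated and -0.53, -0.41 and -0.49 in differentiated replicates, a 1.91-fold fall (-0.94 ± 0.06, adjusted p = 1.91e-06). Smc1a (probe set 10602599) had values of 0.37, 0.08 and 0.20 in undifferentiated and -0.19, -0.08 and -0.17 in differentiated replicates. Undifferentiated replicate 2 came close to the differentiated arrays, but the groups did not overlap, and the fall was 1.29-fold (-0.36 ± 0.08, adjusted p = 0.00557). The 95% intervals of Smc3 (-1.06 to -0.81) and Smc1a (-0.54 to -0.19) were apart.

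Stag1 encodes SA1, one of the alternative HEAT-repeat subunits that bind RAD21. Its values (probe set 10588154) were 0.18, 0.14 and 0.04 in undifferentiated and -0.04, -0.11 and -0.12 in differentiated replicates. Undifferentiated replicate 3 and differentiated replicate 1 were nearly alike, and the fall was 1.16-fold (-0.21 ± 0.06, adjusted p = 0.0199). That call was kept without undifferentiated replicate 3 or differentiated replicate 1 and lost without any other array. The adjusted p was 0.0703 without undifferentiated replicate 1, 0.0622 without undifferentiated replicate 2, 0.0607 without differentiated replicate 2 and 0.0724 without differentiated replicate 3, so the cohesin count was 3 of 4 in each of these cases. Its interval (-0.35 to -0.08) overlapped that of Smc1a.

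The other cohesin subunits did not pass the test. Stag2, which encodes the partner subunit SA2, was at -0.08 ± 0.06 (adjusted p = 0.391, 95% interval -0.22 to 0.06). The meiotic subunit genes Smc1b, Stag3, Rec8 and Rad21l lay between -0.04 in Stag3 and 0.05 in Rec8. None of these 5 genes passed limma's test, and none had an unadjusted p under 0.05. Whether they are expressed in these cells cannot be read from centred values, and for a gene near background no fall could be seen.

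Set side by side within each array, the condensin members moved further than the cohesin members. The mean of the 6 condensin genes was 1.07, 1.05 and 0.93 in undifferentiated and -1.15, -0.95 and -1.09 in differentiated replicates. The mean of the 4 cohesin genes was 0.41, 0.32 and 0.30 in undifferentiated and -0.33, -0.30 and -0.37 in differentiated replicates. Condensin minus cohesin therefore went from 0.67 ± 0.05 (SD, n = 3) to -0.73 ± 0.09 (SD, n = 3), a difference of -1.40 on the log2 scale. Leaving out each array in turn gave -1.44 to -1.35. The condensin mean leaves out Ncapd3 and Ncaph2, which are not members and fell less than most of them. No p-value is attached, because the genes were chosen with earlier results of these data known. Since the background of each probe set is unknown, the difference in array values need not be of this size in RNA.

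**Figure D2:**
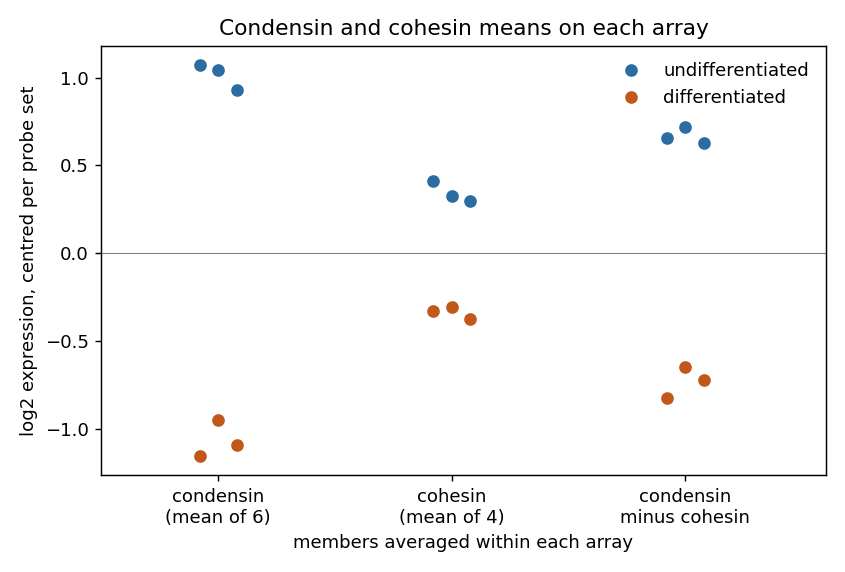
Centred log2 expression averaged over the 6 condensin members, over the 4 cohesin members, and the difference of these means (x axis), with 1 point per array. Condensin minus cohesin lies between 0.63 and 0.72 in the undifferentiated arrays (blue) and between -0.82 and -0.65 in the differentiated arrays (orange).

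The separation was not complete gene by gene. Of the 24 pairings of a condensin with a cohesin member, 23 had a within-array difference that was lower in every differentiated than in every undifferentiated array. In 22 of 24 the 95% intervals of the fold changes were apart, with condensin lower. The exceptions among the members involved Smc4. Its fall overlapped that of Rad21, which was the larger by 0.05 on the log2 scale, and its interval overlapped that of Smc3. The condensin II genes Ncapd3 and Ncaph2 are not members and were not in these pairings. Their intervals, -1.47 to -1.11 and -1.27 to -0.83, both overlapped that of Rad21 (-1.33 to -1.07). The interval of Ncaph2 also overlapped that of Smc3 (-1.06 to -0.81). Members also differed within a complex, with intervals apart in 9 of 15 pairs of condensin members and in 5 of 6 pairs of cohesin members. All these pairings reuse the same members, so they are not separate observations, and no share for pairs of other genes stands beside them.

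Set among all genes, the members spread over much of the falling side. From the bottom of 19938 genes, Ncapg ranked 30, Ncapd2 57, Ncaph 62, Smc2 93, Ncapg2 147 and Smc4 359. The cohesin members ranked 335 for Rad21, 511 for Smc3, 2399 for Smc1a and 3747 for Stag1. In all 10 members every differentiated array lay below every undifferentiated array, which held for 23.0% of all genes. Only 1.80% of genes had a lower fold change than Smc4, the highest of the condensin members, against 18.8% for Stag1, the highest of the cohesin members.

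**Figure D3:**
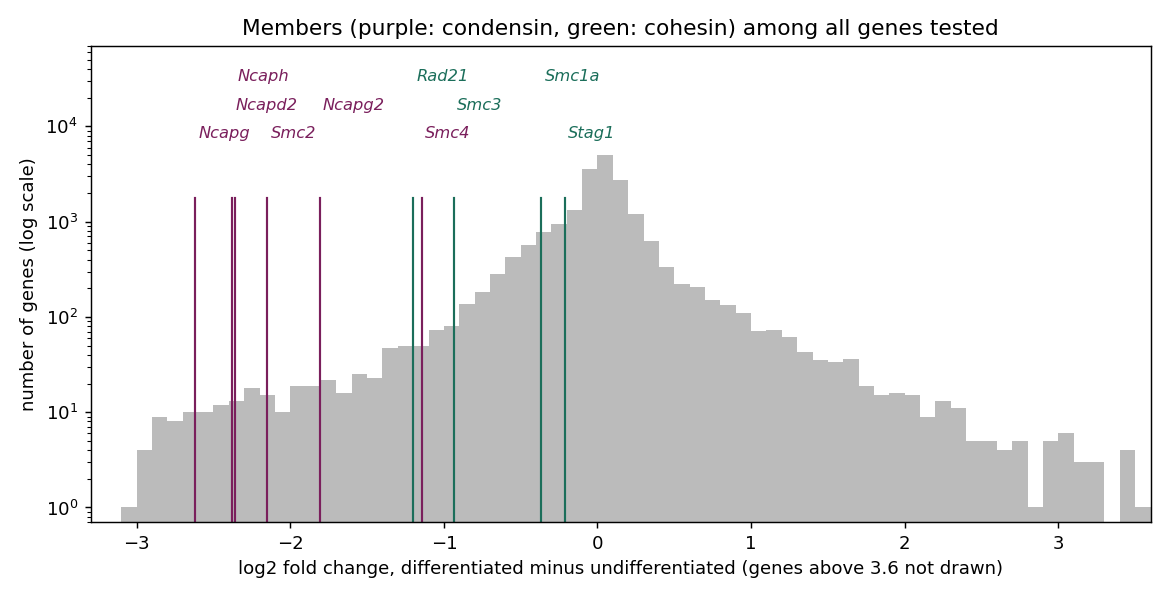
Histogram of the log2 fold change (x axis) of the genes tested, with their number on a log scale (y axis) and a vertical line at each member. The condensin members (purple) lie between -2.62 and -1.14 and the cohesin members (green) between -1.20 and -0.21.

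Genes that act on cohesin during the cell division cycle fell as far as condensin in several cases. Of 8 genes of cohesin acetylation, protection and cleavage, 6 were called lower, 5 of them at least 2-fold, and 2 did not pass, with a median of -1.69. Over all genes the shares were 19.1% lower and 2.28% lower by at least 2-fold. The shugoshin genes Sgo1 (-2.36 ± 0.08, adjusted p = 8.69e-08) and Sgo2a (-2.21 ± 0.06, adjusted p = 4.02e-08), which shield centromeric cohesin, fell the most. Esco2, the S-phase acetyltransferase that locks cohesin onto sister chromatids, also fell (-1.81 ± 0.14). Cdca5, which encodes sororin, the antagonist of cohesin release, fell (-1.68 ± 0.11), as did Espl1, encoding separase (-1.70 ± 0.06). The histone kinase gene Haspin fell less (-0.85 ± 0.12).

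The genes that did not pass in that list were Esco1 and Pttg1. Esco1, the acetyltransferase that acts throughout interphase, was at 0.11 ± 0.09 (adjusted p = 0.448). Its 95% interval of -0.11 to 0.32 was apart from that of Esco2 (-2.12 to -1.50). Pttg1, which encodes the separase inhibitor securin, was at 0.17 ± 0.06 (adjusted p = 0.0638), and it passed as higher without undifferentiated replicate 3 (adjusted p = 0.0470). Securin and separase act as partners, and the 95% interval of Pttg1 (0.03 to 0.32) was apart from that of Espl1 (-1.84 to -1.56). Signal over background is unknown for Esco1 and Pttg1, and for a gene near background no fall could be seen. Both contrasts therefore hold for array values and need not hold in RNA.

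Genes of cohesin loading, release and loop boundaries changed little in size. Of 7 genes, 5 were called lower, 0 of them at least 2-fold, and 2 did not pass, with a median of -0.38. The share called lower among all genes was 19.1%. The release factor Wapl (-0.51 ± 0.07, adjusted p = 4.61e-04), the boundary factor Ctcf (-0.44 ± 0.07, adjusted p = 7.38e-04) and the cohesin-associated regulators Pds5a (-0.39 ± 0.07) and Pds5b (-0.38 ± 0.08) fell. The loader gene Nipbl was at -0.19 ± 0.06 (adjusted p = 0.0484), a call that was lost without any 1 array except differentiated replicate 1, with adjusted p-values of 0.140, 0.0797 and 0.0705 without undifferentiated replicates 1 to 3 and of 0.0677 and 0.165 without differentiated replicates 2 and 3. The loader partner Mau2 (-0.08 ± 0.06, adjusted p = 0.350) and the SMC3 deacetylase Hdac8 (-0.07 ± 0.08, adjusted p = 0.571) did not pass.

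The SMC5/6 complex is the third SMC complex of eukaryotes and acts in DNA repair and replication. Beside 19.1% lower and 16.4% higher over all genes, 4 of its 8 genes were called lower and 1 higher. The other 3 did not pass, and the median of the 8 was -0.23. Slf1, a factor that recruits the complex to damage, was lowest (-0.73 ± 0.12), and its pair of probe sets gave -0.54 and -0.91. The ATPase gene Smc6 (-0.67 ± 0.06), the subunit gene Nsmce1 (-0.63 ± 0.06) and the ATPase gene Smc5 (-0.33 ± 0.07) fell as well. Smc4, the condensin member that fell the least, was at -1.14. The SUMO ligase gene Nsmce2 was at 0.18 ± 0.06 (adjusted p = 0.0420). This call was lost without any 1 array but undifferentiated replicate 2: the adjusted p was 0.0966 without undifferentiated replicate 1, 0.110 without undifferentiated replicate 3, and 0.135, 0.0717 and 0.0791 without differentiated replicates 1 to 3. It was also lost after cyclic loess scaling (0.107). Nsmce4a (-0.13 ± 0.09), Nsmce3 (-0.07 ± 0.08) and Slf2 (0.01 ± 0.08) did not pass.

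**Figure D4:**
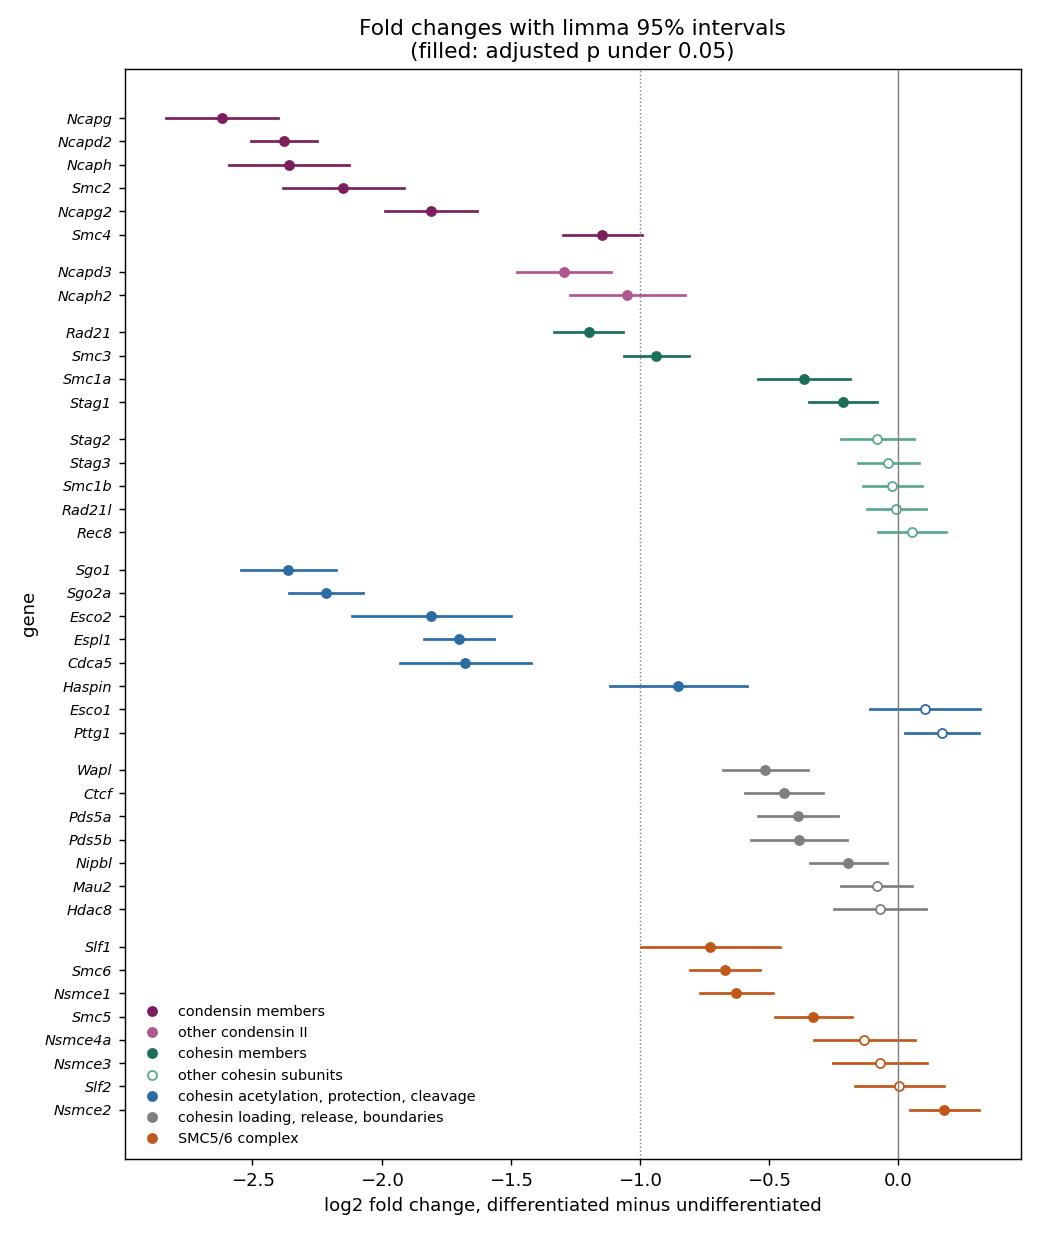
Log2 fold change with limma's 95% interval (x axis) for each measured gene of condensin, cohesin, the cohesin regulators and SMC5/6 (y axis). Filled points passed an adjusted p of 0.05 and open points did not, and the dotted line marks a 2-fold fall. All 8 condensin genes and 6 of the 8 genes of cohesin acetylation, protection and cleavage lie near or left of that line, and Esco1 and Pttg1 of the latter lie to the right of 0.

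Partners of condensin in shaping mitotic chromosomes were all called lower, 10 of 10 with a median of -2.05, and 7 fell at least 2-fold. Among all genes, 19.1% were called lower and 2.28% lower by at least 2-fold. The chromokinesin Kif4, which binds condensin on chromosome axes, fell (-2.44 ± 0.10) by a size close to the condensin I subunits, and Kif22, another chromokinesin, fell too (-2.13 ± 0.10). The kinases Plk1 (-2.90 ± 0.07), Aurkb (-2.30 ± 0.09) and Cdk1 (-1.97 ± 0.08), which phosphorylate condensin subunits, fell likewise. Mcph1, which restrains condensin II in interphase, was at -0.40 ± 0.06 (adjusted p = 8.90e-04), and Smchd1, a non-canonical SMC protein of the inactive X chromosome, at -0.41 ± 0.07 (adjusted p = 0.00169). The topoisomerase gene Top2b, used outside mitosis too, was at -0.60 ± 0.08 (adjusted p = 2.26e-04) and its mitotic relative Top2a at -1.88 ± 0.09 (adjusted p = 5.79e-07), with -2.72 and -1.04 in its pair of probe sets.

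Markers of proliferation moved with the members. All 6 measured markers of the list were called lower, from -2.94 ± 0.08 in Mki67, the Ki-67 antigen that coats mitotic chromosomes, to -0.37 ± 0.06 in Pcna, the replication clamp. Ccnb1 of that list was not analysed here. Mki67, Top2a and Cdk1 were also counted among the condensin partners above, and 19.1% of all genes were called lower. The mean of the 6 markers lay between 0.85 and 1.02 in the undifferentiated and between -0.99 and -0.92 in the differentiated arrays. Their part in the fall of the members was not tested.

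Markers of the labelled and of other cell types were read in the same fit. Of 6 measured osteoblast markers, 3 were called higher (Dmp1, Ibsp and Alpl), 2 lower (Sp7 and Col1a1) and 1 did not pass, where 16.4% of all genes were called higher. Runx2, Bglap and Spp1 of that list were not analysed here. Sp7 did not pass after cyclic loess scaling (adjusted p = 0.106). Adipocyte markers had 2 of 6 higher, macrophage markers 1 of 5 and endothelial markers 0 of 4 by limma, with 1 endothelial marker at an unadjusted p under 0.05. The adipocyte count was 1 without undifferentiated replicate 2 or 3 or differentiated replicate 1 or 3, and the endothelial count was 1 without undifferentiated replicate 3. Their array means ranged from -0.08 to -0.06 before and from -0.01 to 0.15 after induction for adipocyte markers, from -0.07 to -0.03 and from 0.01 to 0.16 for macrophage markers, and from -0.12 to 0.00419 and from 0.02 to 0.08 for endothelial markers. No level can be read from centred values, and the part of other cells in the members' changes was not tested.

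The genes whose values over the 6 arrays were most like the mean of the condensin members were Tmpo, Vdr, Aldh1l2, Asns and Sgo2a. Likeness was the root mean square difference of centred log2 values, which was 0.06 for Tmpo and 0.07 for Sgo2a. Tmpo (-2.05 ± 0.07) encodes the nuclear lamina protein LAP2, Vdr (-2.11 ± 0.07) the vitamin D receptor, Aldh1l2 (-1.99 ± 0.07) a mitochondrial folate enzyme and Asns (-2.19 ± 0.07) asparagine synthetase. Over 6 arrays in 2 groups, this likeness mostly reflects a fold change of similar size.

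Genes lying within 2 kb of a member in the RefSeq table (GRCm38.p6) were looked at after the members' values were seen. Of 7 measured neighbours, 3 were called lower by limma and 4 did not pass, where 19.1% of all genes were called lower. Smc4 has 4 such measured neighbours. Trim59, a ubiquitin ligase gene next to Smc4, fell (-1.44 ± 0.09, adjusted p = 3.85e-06), with a 95% interval (-1.65 to -1.22) that overlapped that of Smc4. Ift80, an intraflagellar transport gene on the other side of Smc4, fell less (-0.29 ± 0.07, adjusted p = 0.00695). The microRNA genes Mir15b (-0.18 ± 0.14, adjusted p = 0.379) and Mir16-2 (0.06 ± 0.09, adjusted p = 0.681) lie inside Smc4 and did not pass, although Mir15b was at -0.34 and passed as lower without undifferentiated replicate 3 (adjusted p = 0.0162).

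Mrpl51, a mitochondrial ribosomal protein gene beside Ncapd2, was at -0.49 ± 0.07 (adjusted p = 5.09e-04), with -0.74 and -0.25 in its pair of probe sets, of which the second did not pass (adjusted p = 0.115). Lcorl beside Ncapg (0.12 ± 0.07, adjusted p = 0.244) and Ribc1 beside Smc1a (-0.13 ± 0.05, adjusted p = 0.0704) did not pass.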

How the data were processed

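The deposited table holds log2 expression per probe set, made by the authors with RMA (version not given in the sources used here) per the submitters' processing notes. That they are log2 follows from the method's name. The 6 values of each probe set have their median at 0, within 1e-06, as seen only from the numbers, so levels, detection and filters on dim probe sets were out of reach, and the direction was taken as higher for more RNA. Probe sets were named from the platform annotation, and RefSeq (GRCm38.p6) gave current symbols by gene ID. Of 28856 probe sets, 21789 named 1 gene and gave 19938 genes, averaging probe sets of a gene. Differentiated minus undifferentiated was fitted over all genes with limma 3.58.1 under R 4.3.3 (lmFit, then eBayes; two-sided; group as the only term), Benjamini-Hochberg adjusted p-values at a threshold of 0.05, moderated SE and 95% intervals. Samples were grouped by title. The number of arrays limits the precision. The fit was tested on simulated data. The members and gene lists were chosen with earlier results of these data known. Genes named are the members, genes of the fixed lists, the 5 nearest profiles and the neighbours. Base composition of promoters was not matched. Alternatives were the replicate block, rescaling, probe set rules, array weights, robust eBayes and each array left out.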

Additional observations from a re-analysis of the deposited data

How the results depend on the processing

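Over 15 alternatives, the condensin count stayed at 6 of 6, the cohesin count at 3 to 4 of 4 (3 to 4 with each array left out), the condensin minus cohesin difference at -1.45 to -1.35, and the number of genes called at 6003 to 7523 around 7070. Of 150 values for the 10 members, 146 kept direction and side of the threshold, and 4, all for Stag1 with an array left out, lost the call. Scaling put the median of all genes at 0.02 under each method. For the other genes named, 840 of 877 values kept direction and side. Direction turned only in genes that did not pass: Slf2 was at -0.032 after cyclic loess and -0.014 with array weights, and Rad21l at 0.0021 with the lowest-numbered probe set and 4.6e-04 with array weights. With each array left out, Slf2 ran from -0.051 to 0.064, Rad21l from -0.017 to 0.014, Esco1 from -0.0025 to 0.19, Hdac8 from -0.13 to 9.2e-05 and Mir16-2 from -0.016 to 0.14. The cause was not tested. Nipbl had adjusted p-values of 0.0501 to 0.0505 with the probe set alternatives and robust eBayes, and Nsmce2 of 0.0504 with array weights and 0.0530 after quantile normalization.

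The replicate number as a block gave 7162 genes called and kept all 6 condensin and 4 cohesin calls. It took the call from Nsmce2 (adjusted p = 0.0569) and gave one to Pttg1 as higher (0.0488), as array weights did (0.0493). Deviations of same-numbered arrays from their group means correlated at -0.0013, 0.07 and 0.16 for numbers 1 to 3, so the numbers were not taken as pairs, and undifferentiated replicate 1 correlated best with differentiated replicate 2 (0.13). The filter on dim genes was not run, since centred values hold no level, and signal over background is unknown.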
